A study of Mus musculus with 10 samples.

Results

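The extracellular matrix genes of skin were compared between mice given baricitinib, a drug that blocks the Janus kinases JAK1 and JAK2, and mice given vehicle. The 45 listed genes were collagens, proteoglycans, elastic fibre components, glycoproteins of the matrix, enzymes that process collagen and receptors on the fibroblast surface. They were chosen by name, and a gene was read by the brightest probe set, on the mean of the 10 arrays, among those annotated to 1 gene alone. In this way 43 of the 45 genes were measured, out of 18193 genes on the array. Fbn1, the main fibrillin of adult skin, was not analysed here, and Loxl2, a lysyl oxidase, was left out because its 2 probe sets are shared with another gene symbol.

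All mice were of the C3H/HeJ strain and carried a graft of skin from an alopecic C3H/HeJ donor, which transfers alopecia areata (AA), an autoimmune hair loss, to young recipients that were free of disease. The 5 treated mice had baricitinib delivered by an implanted osmotic pump from the day of grafting, and the 5 control mice had a pump with vehicle alone. Skin was taken at week 12, 1 array per mouse, and the labels give neither the body site nor the age. The comparison asks what preventive JAK inhibition left different in the skin of grafted mice, and since both groups were grafted and no ungrafted skin is in the series, neither group shows the normal level.

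The dermis is built by fibroblasts, which secrete collagen chains that assemble into fibres of high tensile strength. Small leucine-rich proteoglycans bind to these fibres and set their diameter and spacing. Elastin is laid down on a scaffold of fibrillin microfibrils with the help of fibulins and is cross-linked by lysyl oxidases, which gives skin its recoil. The same cells wrap the lower hair follicle in a connective tissue sheath, so the amount and kind of matrix in a piece of skin changes with the hair cycle and with inflammation.

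Arrays are called B1 to B5 for baricitinib and V1 to V5 for vehicle, by the replicate numbers in their titles. Values are log2 expression, so a difference of 1 is a doubling, and all differences are baricitinib minus vehicle. V5 stood apart from the rest: its median correlation with the other arrays was 0.705, against 0.959 to 0.981 for the other 9. RNA quality was read as the gap between the 3' and 5' control probe sets of beta-actin and Gapdh, a measure that grows as RNA breaks down. The gap was 0.99 to 1.18 log2 on the 5 baricitinib arrays and 1.01 on V4, but 1.998 on V2, 3.03 on V1, 4.06 on V5 and 4.35 on V3. RNA quality thus moved with the groups, and its part in the differences below was not tested. The SD of V5 over all probe sets was 2.28 log2, against 2.71 to 2.79 for the others, and its mean over the measured genes was 6.98, against 7.47 to 7.58. Results are for all 10 arrays, and the value without V5 is added where it differs by much.

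Each of the 43 genes was tested in a limma fit across all 45037 probe sets, with Benjamini-Hochberg adjustment over all of them. None of the 43 passed an adjusted p of 0.05, and the share of all probe sets that passed was 0.0% (smallest adjusted p 0.221). Without V5 none passed either (smallest adjusted p 0.0733 over all probe sets). Without V4, 2 of the 43 passed as higher, with 0.967% of all genes, and 0 as lower, with 0.753%. That fit leaves only vehicle arrays with RNA gaps of 1.998 to 4.35, all above those of the baricitinib arrays. Array quality weights, which limma estimates from the scatter of each array, were 0.03 for V5 and 0.50 for V4. The largest were 5.43 for B1 and 2.05 for V2. With these weights 9 of the 43 passed as higher and 1 as lower, with 9.83% and 13.2% of all genes. At an unadjusted p under 0.05, 11 of the 43 genes were higher with baricitinib (25.6%) and 0 were lower, while 9.81% of all genes were higher and 6.22% were lower by the same rule (14.8% of all probe sets in either direction). The 11 were Dcn, Lum, Eln, Fbln1, Fbln2, Mfap2, Tnxb, Thbs2, Postn, Sparc and Pdgfrb. Without V5 the numbers were 10 higher and 2 lower, against 13.3% of all genes higher and 16.1% lower. The baricitinib mean was the larger for 34 of the 43 genes, as for 50.3% of all genes, and their median difference was 0.29, with 0.01 over all genes. It was the larger for 30 of 43 with arrays centred on their median and for 28 after quantile normalisation. Without V5 it was the larger for 27 of 43 (42.8% of all genes), and the median was 0.14, with -0.06 over all genes.

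**Figure D1:**
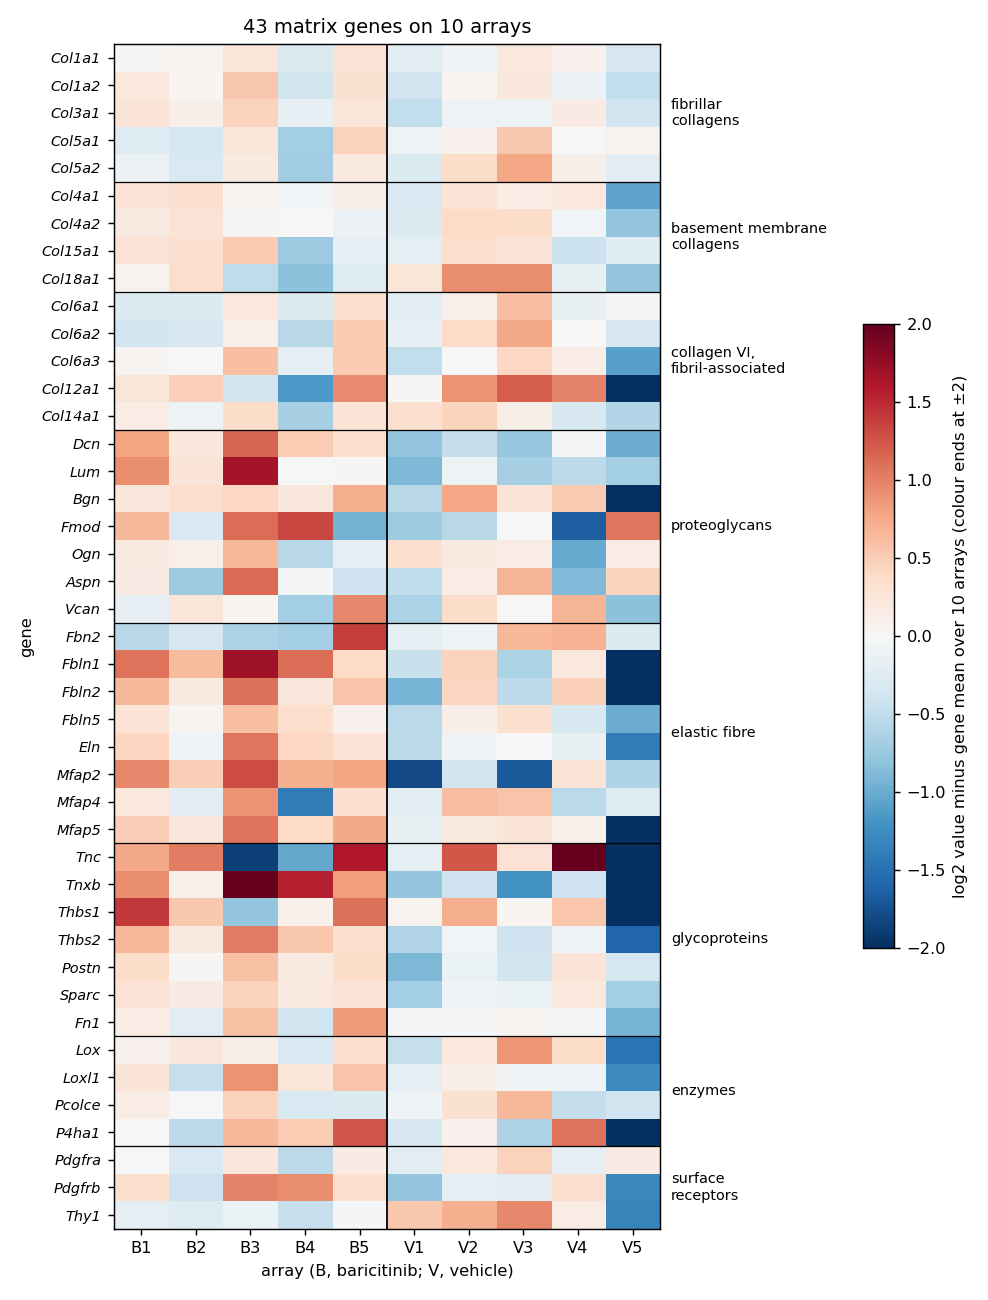
Each row is 1 matrix gene, grouped by role, and each column 1 array (B, baricitinib; V, vehicle); colour gives the log2 value minus the mean of that gene over the 10 arrays, and the darkest colours stand for 2 units or more. V5 is blue for most genes and is the lowest vehicle array for 28 of 43, while the baricitinib and vehicle columns part in the Dcn, Lum, Mfap2, Tnxb and Thbs2 rows and overlap in the collagen rows.

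The 5 genes whose groups did not overlap were Dcn, Lum, Mfap2, Tnxb and Thbs2, each with its lowest baricitinib array above its highest vehicle array. They are 11.6% of the 43, and 3.8% of all genes lay apart in this direction. The same 5 genes lay apart without V5, when 4.53% of all genes did. None of the 43 lay apart with baricitinib lower, as 1.82% of all genes did. Since RNA came from whole skin, fewer cells of a type and less RNA per cell cannot be told apart.

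Stretches just before the start of transcription are shown for a pair of genes that lay apart, Mfap2 and Thbs2, and for a pair of fibrillar collagen genes that did not, Col1a2 and Col3a1, so that both kinds can be read side by side. Each is the 150 bases that end at the base before the annotated start, 5' to 3' on the strand of the gene, from RefSeq for build GRCm38.p6. For Mfap2, which has 2 entries, the first is shown. Positions are chr4:141010531-141010680 on the plus strand for Mfap2, chr17:14694263-14694412 on the minus strand for Thbs2, chr6:4505468-4505617 on the plus strand for Col1a2 and chr1:45311388-45311537 on the plus strand for Col3a1. Capitals mark matches, on either strand, to GGGCGG (a GC box), CCAAT or TATAAA.
Mfap2: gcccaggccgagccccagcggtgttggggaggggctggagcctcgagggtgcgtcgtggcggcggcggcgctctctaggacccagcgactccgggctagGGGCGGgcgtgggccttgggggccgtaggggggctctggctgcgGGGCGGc
Thbs2: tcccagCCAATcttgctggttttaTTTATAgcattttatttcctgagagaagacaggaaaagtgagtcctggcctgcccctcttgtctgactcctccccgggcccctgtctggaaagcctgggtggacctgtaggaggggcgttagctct
Col1a2: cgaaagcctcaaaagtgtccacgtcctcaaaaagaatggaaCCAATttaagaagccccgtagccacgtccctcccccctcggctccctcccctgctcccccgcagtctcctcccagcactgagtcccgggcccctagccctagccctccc
Col3a1: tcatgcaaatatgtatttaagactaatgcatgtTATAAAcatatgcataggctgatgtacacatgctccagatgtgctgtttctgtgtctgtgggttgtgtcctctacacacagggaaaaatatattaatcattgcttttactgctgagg

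The Mfap2 stretch holds 2 GC boxes, that of Thbs2 a CCAAT and, on the other strand, a TATAAA, that of Col1a2 a CCAAT and that of Col3a1 a TATAAA. The stretches of Postn and Sparc were read as well, held none of the motifs searched and are not shown. Promoter entries were used for 27 of the 43 genes. Searched on both strands over the same 150 bases, GGGCGG was in 10 of the 27 and in 29.0% of all 27025 promoters, CCAAT in 6 and 25.3%, TATAAA in 3 and 8.08%, and TGANTCA, the AP-1 motif, in 2 and 4.27%. TTCNNNGAA, the letters bound by STAT factors, was in 0 of the 27 and in 4.17% of all. These matches describe letters and not sites in use.

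Among the 7 proteoglycans, Dcn and Lum were the genes that lay apart. Dcn encodes decorin, a small leucine-rich proteoglycan that coats collagen fibrils. It read 12.44, 11.88, 12.81, 12.15 and 11.98 log2 on B1 to B5 and 10.86, 11.17, 10.89, 11.63 and 10.65 on V1 to V5. Every baricitinib array was above every vehicle array, and V4 came closest, 0.25 below B2. The difference was 1.21 ± 0.24 (SE, n = 5 and 5, 2.32-fold), and limma's adjusted p was 0.221 with all arrays and 0.0733 without V5, when the difference was 1.12. Without V4 the difference was 1.36 and passed (limma adjusted p = 0.0371). V4 is the only vehicle array with an RNA gap in the range of the baricitinib arrays. A second Dcn probe set gave 0.58 ± 0.43.

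Lum encodes lumican, a keratan sulphate proteoglycan that limits the growth of collagen fibrils. Its values were 9.84, 9.16, 10.56, 8.90 and 8.93 with baricitinib and 8.001, 8.80, 8.23, 8.38 and 8.23 with vehicle. The groups lay apart by a narrow margin, between B4 and V2, and B3 was well above the other 9 arrays. The difference of 1.15 ± 0.33 (2.22-fold, limma adjusted p = 0.230) was 1.13 without V5 and 0.88 in the lowest case of leaving out 1 array. Dcn and Lum are neighbours on chromosome 10, with Kera (keratocan) next to Lum and Epyc (epiphycan) next to Kera, and no protein-coding gene between them in RefSeq. Kera had a difference of 1.15 (1.65 without V5, 0.72 without V4) and Epyc one of -1.14 (-0.35 without V5). Epyc was not lower at an unadjusted p under 0.05 in limma, with all arrays or without V5. Its negative sign therefore cannot decide whether the members of this cluster shared a direction.

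The other proteoglycans had larger spreads. Bgn (biglycan, the closest relative of decorin) read 11.64, 11.76, 11.82, 11.64 and 12.14 with baricitinib against 10.86, 12.18, 11.66, 11.94 and 8.47 with vehicle. The groups overlapped, V5 was far below all others, and the difference of 0.78 ± 0.62 (adjusted p = 0.492 in limma) was 0.14 ± 0.25 without it. Fmod (fibromodulin) had a difference of 0.74 ± 0.56 with an SD of 0.97 between baricitinib arrays. V5 was its highest vehicle array and V4 its lowest, and the difference was 1.10 without V5 and 0.42 without V4. Its 6 probe sets all gave differences above 0, from 0.74 to 2.07, and for the set with the largest, baricitinib arrays read 6.43 to 8.56 and vehicle arrays 5.07 to 5.80. Ogn (osteoglycin), Aspn (asporin) and Vcan (versican, the large proteoglycan of growing dermis and dermal papilla) had differences of 0.08 ± 0.30, 0.05 ± 0.40 and 0.16 ± 0.37, and of -0.16, -0.17 and 0.35 without V4. Their other probe sets read differently: the second Ogn set gave 1.46 ± 0.46, the second Aspn set 1.09 ± 0.41, and the 7 other Vcan sets -1.31 to -0.09. The lowest of these Vcan values, -1.31 and -1.30, came from dim sets (means of 3.60 and 3.36 log2) and were -0.18 and -0.12 without V5. The brightest of the 7 gave -0.33 ± 0.35. All 7 proteoglycans had the larger mean with baricitinib and a median of 0.74. That count was 6 of 7 with arrays centred on their median, 4 of 7 after quantile normalisation and 6 of 7 without V5, when the median was 0.16. Ogn and Aspn lie in a second cluster of such genes, on chromosome 13, between Ecm2 (0.58) and Omd (0.36).

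**Figure D2:**
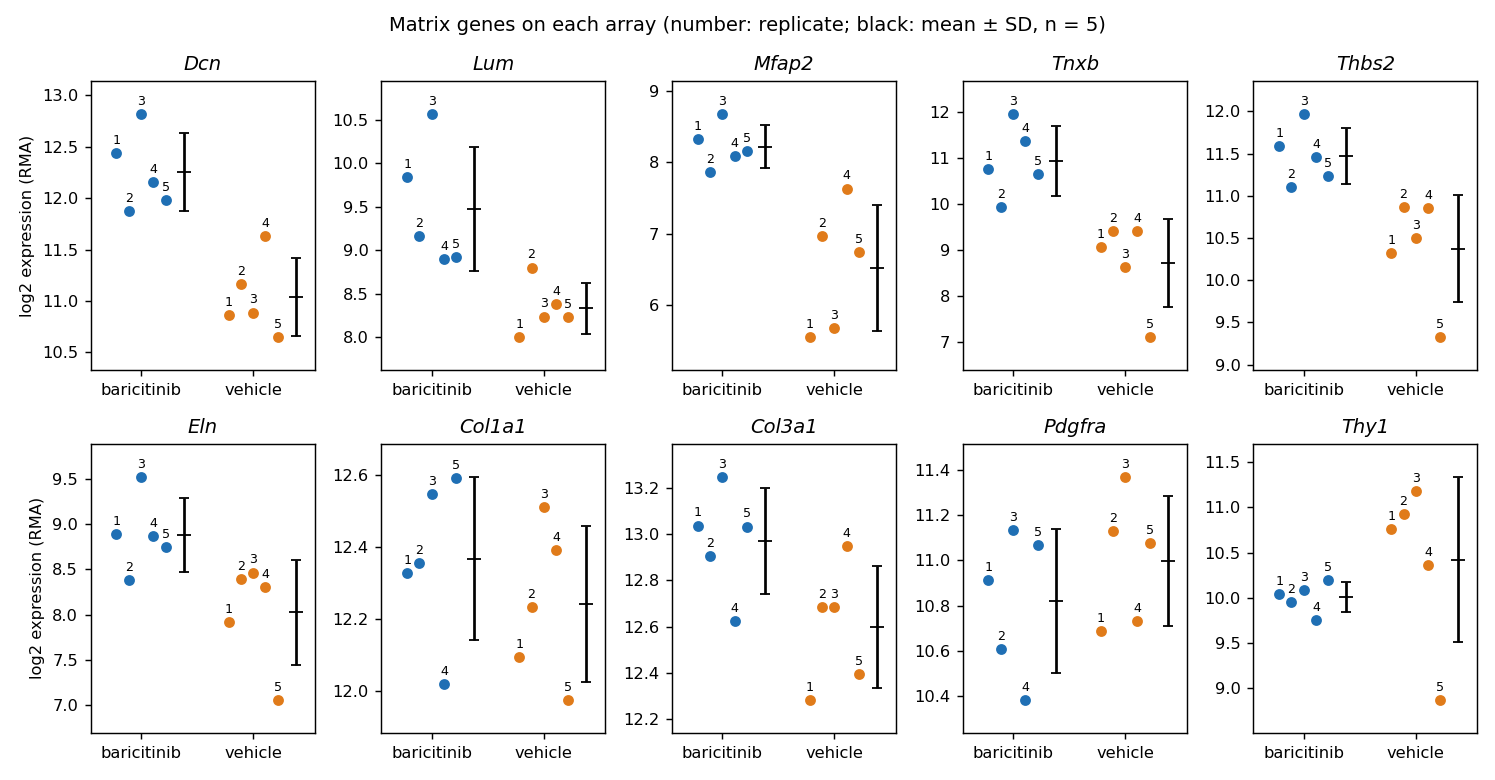
Each panel shows 1 gene, with a point per array labelled by replicate number (blue, baricitinib; orange, vehicle) and the mean ± SD of 5 arrays in black; the y axis is log2 expression and has a different range in each panel. Dcn, Lum, Mfap2, Tnxb and Thbs2 have all blue points above all orange ones, Col1a1, Col3a1 and Pdgfra overlap over most of their range, and the Thy1 points lie apart, with vehicle higher, only if V5 is set aside.

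The elastic fibre genes had the largest median difference of the 8 roles, 0.97 over 8 genes, and 0.55 without V5. Of the 8, 4 were higher at an unadjusted p under 0.05, as 9.81% of all genes were, namely Eln, Fbln1, Fbln2 and Mfap2. Without V5 the 4 were Eln, Fbln1, Mfap2 and Mfap5, with 13.3% of all genes higher. Mfap2 encodes a microfibril glycoprotein that binds fibrillin. It read 8.32, 7.87, 8.67, 8.08 and 8.15 with baricitinib and 5.56, 6.97, 5.68, 7.63 and 6.74 with vehicle. The baricitinib arrays were within 0.80 of each other while the vehicle arrays spread over 2.07, with V4 the highest and V1 and V3 the lowest. The difference was 1.70 ± 0.39 (3.25-fold, adjusted p = 0.221 in limma) and 1.76 without V5. It passed at 1.98 (limma adjusted p = 0.0375) without V4, the only vehicle array with an RNA gap in the baricitinib range. The other Mfap2 probe set gave 0.21 ± 0.16, so the size of the difference depended on the probe set.

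Eln encodes tropoelastin, the soluble precursor of elastin. It read 8.89, 8.39, 9.52, 8.87 and 8.75 with baricitinib and 7.91, 8.39, 8.47, 8.31 and 7.06 with vehicle. B2 lay within the vehicle range, the other 4 baricitinib arrays lay above it, and V5 was the lowest array. The difference was 0.86 ± 0.30 (1.81-fold, limma adjusted p = 0.271) and 0.61 ± 0.22 without V5. A second Eln probe set gave 0.12 ± 0.17.

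The fibulins bind elastin and basement membranes and guide elastic fibre assembly. Fbln1 read 9.25, 8.80, 9.87, 9.28 and 8.57 with baricitinib and 7.72, 8.62, 7.54, 8.38 and 3.68 with vehicle. Only B5 was within the vehicle range, and V5 was far below every other array. The difference of 1.97 ± 0.83 (adjusted p = 0.320 in limma) became 1.09 ± 0.30 without V5. The spread between vehicle arrays then fell to an SD of 0.52 from 2.01. The other Fbln1 probe sets gave 1.32 ± 0.42 and -0.15 ± 0.31. Fbln2 read 7.25, 6.77, 7.69, 6.82 and 7.16 against 5.66, 7.03, 6.08, 7.06 and 4.41. V2 and V4 were among the baricitinib arrays, and the difference of 1.09 ± 0.47 (limma adjusted p = 0.327) was 0.68 without V5. Fbln5, which elastogenesis in skin requires, had 0.55 ± 0.25 and 0.38 without V5.

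Mfap5, the second microfibril-associated glycoprotein, read 9.77, 9.51, 10.37, 9.68 and 10.05 with baricitinib and 9.13, 9.48, 9.54, 9.38 and 5.92 with vehicle. The vehicle arrays other than V5 were close together (9.38 ± 0.18, SD, n = 4), and only B2 fell below the highest of them. The difference of 1.18 ± 0.64 (adjusted p = 0.392 in limma) was 0.49 ± 0.18 without V5. A second Mfap5 probe set, with a mean of 9.26 log2 against 9.28 for the chosen one, gave 0.40 ± 0.22. Its vehicle arrays read 8.64 to 9.58, so the low V5 value belonged to the chosen set. Mfap4, a microfibril protein with a fibrinogen-like domain, had -0.07 ± 0.42 (-0.14 without V5), and Fbn2, the fibrillin of developing tissue, had -0.33 ± 0.41. B5 was the exception for Fbn2 at 8.51, with the other baricitinib arrays at 6.45 to 6.80 and the vehicle arrays at 6.86 to 7.83. Without B5 the Fbn2 difference was -0.71, at an unadjusted p under 0.05, and its second probe set gave -0.71 ± 0.33 with all arrays. The 6 of 8 elastic fibre genes with the larger baricitinib mean stayed at 6 of 8 with median centring, with quantile normalisation and without V5.

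The 7 adhesive and matricellular glycoproteins, which link cells to fibres or tune that contact, had a median difference of 0.60 and of 0.45 without V5. Tnxb encodes tenascin-X, a large glycoprotein that ties collagen fibrils to one another and whose loss gives a hyperelastic skin. It showed the largest difference of the 43 genes. The values were 10.76, 9.93, 11.95, 11.37 and 10.66 with baricitinib and 9.06, 9.41, 8.62, 9.41 and 7.11 with vehicle. All baricitinib arrays were above all vehicle arrays, B2 being the lowest of the former. The difference was 2.21 ± 0.50 (4.64-fold, limma adjusted p = 0.221), and it was 1.81 ± 0.37 without V5 and 2.38 without V4 (adjusted p = 0.0566 by limma). Only 1 probe set is annotated to Tnxb alone, and so the value has no second reading here.

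Thbs2 encodes thrombospondin-2, an inhibitor of vessel growth needed for regular collagen fibrils. It read 11.59, 11.10, 11.96, 11.46 and 11.24 with baricitinib and 10.32, 10.87, 10.50, 10.85 and 9.33 with vehicle. V2 and V4 were nearest to the baricitinib arrays, 0.23 and 0.25 below B2. The difference was 1.10 ± 0.31 (2.14-fold, adjusted p = 0.229 in limma) and 0.83 ± 0.19 without V5, but the other 2 Thbs2 probe sets gave 0.15 ± 0.35 and -0.17 ± 0.26. Thbs1, the other trimeric thrombospondin and an activator of latent TGF-beta, read 10.57, 9.70, 8.39, 9.26 and 10.26 against 9.22, 9.89, 9.20, 9.71 and 5.37. Its groups overlapped, B3 was the lowest baricitinib array, and the difference of 0.96 ± 0.83 (limma adjusted p = 0.513) was 0.13 without V5.

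Postn (periostin, which supports collagen cross-linking) had 0.60 ± 0.22 and 0.59 without V5, with baricitinib arrays at 11.83 to 12.38 and vehicle arrays at 10.90 to 12.06. Sparc, a collagen-binding protein that collagen secretion depends on, had 0.55 ± 0.20 and 0.45 without V5. For Sparc the baricitinib arrays read 12.66 to 12.94, the vehicle arrays 11.81 to 12.70, and V4 was the 1 vehicle array inside the baricitinib range. Its other probe sets gave 2.04 ± 0.79 and -0.46 ± 0.29. Fn1 (fibronectin) had 0.39 ± 0.29, and 0.21 without V5. Tnc (tenascin-C, made in wounds and around growing follicles) had 0.20 ± 1.10. Tnc varied widely within each group, from 7.47 to 10.94 with baricitinib and from 5.38 to 11.45 with vehicle, and its difference was -0.76 without V5 and 0.76 without V4. The other Tnc probe set gave -1.11 ± 0.78.

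The collagens had smaller differences. Col1a1 encodes the major chain of type I collagen, the main protein of the dermis. It read 12.33, 12.36, 12.55, 12.02 and 12.59 with baricitinib and 12.09, 12.23, 12.51, 12.39 and 11.98 with vehicle. The groups overlapped over nearly all of their range, and the difference was 0.13 ± 0.17 (1.09-fold, limma adjusted p = 0.655), and 0.06 ± 0.14 without V5. The other Col1a1 probe set gave 0.48 ± 0.25. Col1a2, the second chain of the same molecule, had 0.28 ± 0.21.

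Col3a1, whose type III collagen is rich in young and healing skin, read 13.04, 12.90, 13.25, 12.62 and 13.03 with baricitinib and 12.28, 12.68, 12.68, 12.95 and 12.39 with vehicle. B2 and B4 were below V4, the highest vehicle array, and V2, V3 and V4 were above B4, the lowest baricitinib array. The difference was 0.37 ± 0.18 (1.29-fold, adjusted p = 0.358 in limma) and 0.32 ± 0.16 without V5. Col5a1 and Col5a2, chains of the type V collagen that starts fibrils, had -0.23 ± 0.24 and -0.29 ± 0.26. The other Col5a1 probe sets gave 0.02 ± 0.37 and 1.11 ± 0.35. Col3a1 and Col5a2 are adjacent on chromosome 1 and had differences of opposite sign. The fibrillar collagens as a group had 3 of 5 means larger with baricitinib and a median of 0.13, and 0 of 5 at an unadjusted p under 0.05.

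The 4 basement membrane collagens had a median of 0.12, with 3 of 4 means larger with baricitinib. With quantile normalisation the median was -0.02 and the count 2 of 4. Col4a1 and Col4a2, the chains of the network under every epithelium and vessel, had 0.29 ± 0.26 and 0.15 ± 0.24, and 0.06 and -0.03 without V5. Col15a1 had 0.09 ± 0.27, and 0.04 without V5. The other Col4a1 probe set gave 0.90 ± 0.49. Col18a1, the source of endostatin, had -0.46 ± 0.36 with all arrays and -0.72 ± 0.29 without V5 (limma unadjusted p = 0.0361, adjusted p = 0.155).

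Collagen VI, which forms beaded filaments around cells, and the collagens that sit on fibril surfaces gave a median of 0.01, with 3 of 5 means larger with baricitinib. The median was -0.06 with arrays centred and -0.15 after quantile normalisation, and without V5 it was -0.14, with 1 of 5 larger. Col6a1 and Col6a2, adjacent on chromosome 10, had -0.12 ± 0.21 and -0.26 ± 0.27, and Col6a3, the chain with the longest globular part, had 0.40 ± 0.30, and 0.18 without V5. Col14a1 had 0.01 ± 0.26, and -0.13 without V5. Col12a1 had 0.06 ± 0.82, with V5 at 5.52 and the other vehicle arrays at 8.83 to 10.02. Without V5 the Col12a1 difference was -0.75 ± 0.41, and its 3 other probe sets gave -0.88 to -0.08 with all arrays.

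**Figure D3:**
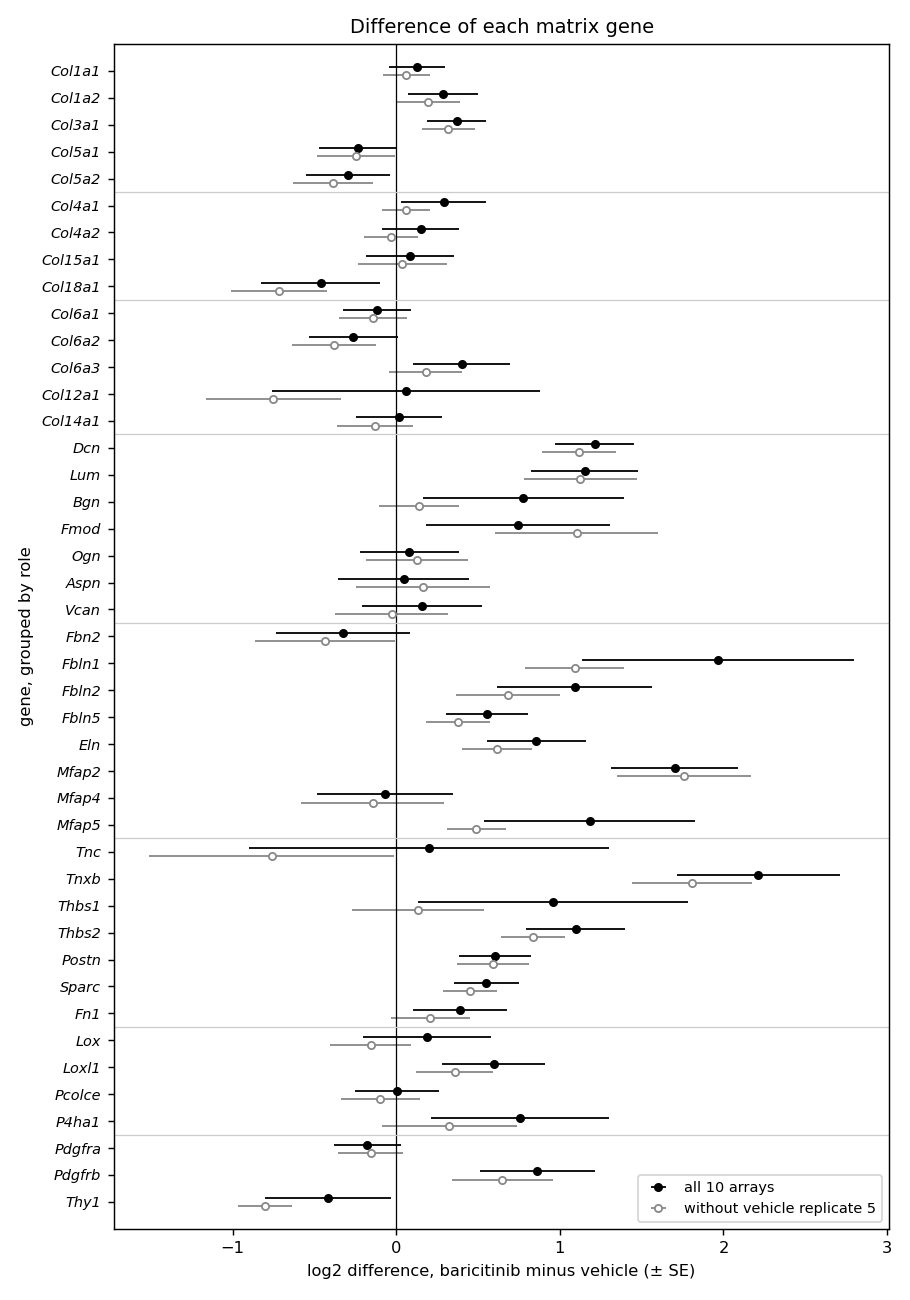
Points are the log2 difference of each gene, baricitinib minus vehicle, with its SE as a bar, for all 10 arrays (black) and without vehicle replicate 5 (grey, open); grey lines part the roles, from fibrillar collagens at the top to surface receptors at the bottom. Collagens cluster around 0, Tnxb reaches 2.21, and Fbln1, Bgn, Mfap5 and Thbs1 shift most toward 0 when V5 is left out, whereas Dcn, Lum, Mfap2 and Postn hardly move.

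None of the 4 measured enzymes passed an unadjusted p of 0.05. P4ha1, a catalytic subunit of the prolyl hydroxylase that lets collagen helices fold, had 0.76 ± 0.55, and 0.32 without V5, while its other probe set gave -0.57 ± 0.41. Loxl1, the lysyl oxidase most tied to elastic fibres, had 0.59 ± 0.32 and 0.36 without V5 (other probe set 0.98 ± 0.44), and Lox, the main cross-linking enzyme of collagen and elastin, had 0.19 ± 0.39. Pcolce, which speeds the trimming of procollagen, had 0.00 ± 0.25, and its other probe set gave 1.15 ± 0.43. All 4 means were the larger with baricitinib, by 0.00 to 0.76, but 3 of 4 were after centring or quantile normalisation and 2 of 4 without V5, when Lox and Pcolce had -0.16 and -0.10.

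The 3 receptors that mark fibroblasts and pericytes did not share a direction. Pdgfra, the platelet-derived growth factor receptor of dermal fibroblasts, read 10.91, 10.61, 11.13, 10.39 and 11.07 with baricitinib and 10.69, 11.13, 11.37, 10.73 and 11.08 with vehicle. The groups overlapped almost fully, and the difference was -0.18 ± 0.20 (limma adjusted p = 0.608). The other Pdgfra probe sets gave -0.55 ± 0.40 and 0.38 ± 0.24. Pdgfrb, the related receptor on pericytes and many fibroblasts, read 9.60, 8.86, 10.27, 10.21 and 9.59 against 8.49, 9.08, 9.07, 9.59 and 7.99. B2 and B5 were not above V4, the highest vehicle array, and V2, V3 and V4 were above B2, the lowest baricitinib array. The difference was 0.86 ± 0.35 (1.82-fold, adjusted p = 0.309 in limma), and 0.65 without V5. A second Pdgfrb probe set gave 1.45 ± 0.42.

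Thy1, a surface glycoprotein of fibroblasts that mouse T cells carry as well, had its larger mean with vehicle. It read 10.04, 9.95, 10.09, 9.76 and 10.20 with baricitinib and 10.76, 10.92, 11.18, 10.37 and 8.87 with vehicle. V1 to V4 were all above the 5 baricitinib arrays, and V5 was below all of them. With all arrays the difference was -0.42 ± 0.39 (adjusted p = 0.534 in limma), and without V5 it was -0.80 ± 0.17 (adjusted p = 0.0733 in limma). Thy1 was then the 1 gene of the 43 whose groups lay apart with vehicle higher, as 4.73% of all genes did. The mean of 7 T cell markers was 6.21 to 8.45 log2 on the baricitinib arrays, 8.46 to 9.07 on V1 to V4 and 6.14 on V5, so Thy1 and the T cell markers were both low on V5. V5 was the lowest vehicle array for 28 of the 43 genes. B5, the baricitinib array with the highest T cell marker mean (8.45), had a Thy1 value of 10.20, the highest of its group. B4 had the lowest Thy1 value of the group (9.76) with a T cell marker mean of 7.18, above the 6.21 of B2. The part of T cells in the Thy1 difference was not tested.

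V4 was the 1 vehicle array with a gap in the range of the baricitinib arrays. It was below the whole baricitinib range for 13 of the 43 genes, within it for 26 and above it for 4. It was below the range for 5 of 7 proteoglycans and 5 of 8 elastic fibre genes, and for 0 of the 5 fibrillar, 4 basement membrane and 5 other collagens. These counts rest on 1 array, and the share over all genes was not counted. Fmod, Ogn and Aspn are among the 5 proteoglycans, and V4 was the lowest vehicle array for each of them. Genes such as Dcn, whose groups lay apart, had to have V4 below that range.

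**Figure D4:**
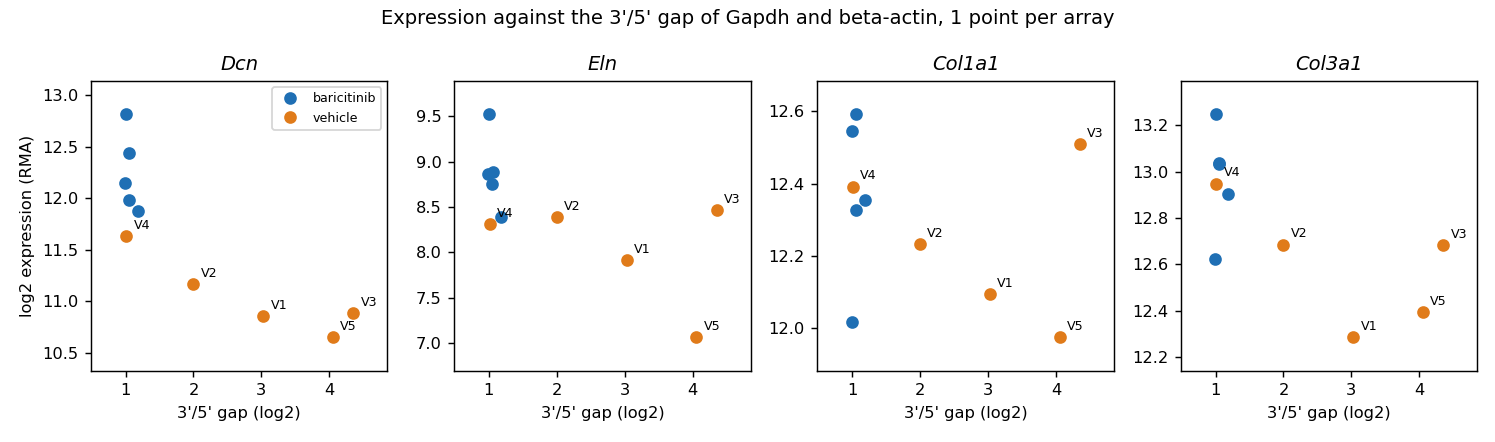
Each point is 1 array (blue, baricitinib; orange, vehicle, labelled); the x axis is the gap between 3' and 5' control probe sets in log2, larger with poorer RNA, and the y axis is log2 expression of the gene. The baricitinib arrays and V4 all sit near a gap of 1, where V4 lies below the other 5 for Dcn and Eln and among them for Col1a1 and Col3a1, and the other vehicle arrays lie at 1.998 to 4.35.

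Genes outside the list that serve as fibroblast markers were read as well, and whether they read the same cells was not tested. Of 19 measured other fibroblast markers, 17 had the larger mean with baricitinib, 8 at an unadjusted p under 0.05 (0 lower), and 6 had groups that lay apart. Of all genes 9.81% were higher and 6.22% lower by that rule, and 3.8% lay apart. Their median difference was 0.51 and 0.49 without V5, and their mean level was 9.71 to 10.67 log2 on baricitinib arrays and 8.69 to 9.58 on vehicle arrays. The largest differences were those of Pi16, a marker of adventitial fibroblasts (2.55 ± 0.65), and Igfbp6, which binds insulin-like growth factor II (2.10 ± 0.51). Neither passed with all arrays (limma adjusted p = 0.224 and 0.223). Fibroblast genes of the list itself were mixed. Col1a1, Pdgfra and Thy1 had differences of 0.13, -0.18 and -0.42, while Dcn, Lum and Pdgfrb had 1.21, 1.15 and 0.86.

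Other genes of the matrix pathway were read from lists by function. Among 22 further enzymes and chaperones of collagen synthesis, 20 had the larger mean with baricitinib and 4 were higher at an unadjusted p under 0.05 (9.81% of all genes were), with 0 lower. Without V5 14 of 22 had the larger mean, and the median was 0.17 in place of 0.64. Pcolce2, a second procollagen trimming enhancer, had 1.66 ± 0.33 with groups apart, and Serpinh1, the collagen chaperone, had 1.25 ± 0.79, and 0.41 without V5. Among 11 further elastic fibre genes 9 means were larger and 1 gene was higher at an unadjusted p under 0.05, a share near that of all genes. Without V5 6 of 11 means were larger, with 2 genes higher and 3 lower at that p, against 13.3% and 16.1% of all genes. The 1 gene was Ltbp4, a latent TGF-beta binding protein needed for elastic fibres, with 2.14 ± 0.65 and groups apart, while Adamts10 had 1.25 ± 0.70, and 0.51 without V5.

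Of 14 further proteoglycan and related genes, 9 had the larger mean with baricitinib (median 0.40, and 0.21 without V5), among them Srpx with 1.22 ± 0.28 and groups apart. Of 12 further basement membrane genes 11 did (median 0.65, and 0.30 without V5), with Lamb2 and Lamc1, laminin chains, at 1.34 ± 0.58 (0.76 without V5) and 1.20 ± 0.34. The 27 further collagen chains had a median of 0.01, with 14 larger means, and 3 were higher and 0 lower at an unadjusted p under 0.05, near the share of all genes. Without V5 2 were higher and 3 lower, against 13.3% and 16.1% of all genes. Col8a2, a short-chain collagen of vessel and corneal endothelium, had 1.44 ± 0.42, and Col11a1, of cartilage and fibrotic fibroblasts, had -1.37 ± 0.67. Genes that TGF-beta induces in fibrosis had a median of 0.04 over 7, with Comp at 0.43 ± 0.27 (0.25 without V5) and Inhba, a subunit of activin, at -1.73 ± 0.36 with every baricitinib array below every vehicle array.

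Markers of other cells of the skin moved with the groups as well, and their part in the matrix gene differences was not tested. All 12 myofibroblast and mural cell markers had the larger mean with baricitinib, with list means of 9.22 to 10.23 log2 against 7.17 to 9.24, and Myl9 (3.45 ± 1.17, and 2.27 without V5) and Des (1.60 ± 0.84, and 0.75 without V5) differed most. The same held for 8 of 8 endothelial markers (7.12 to 8.66 against 6.19 to 7.11; Tie1 1.72 ± 0.48, Pecam1 1.65 ± 0.44) and 6 of 6 adipocyte markers (9.63 to 11.30 against 8.42 to 9.48; Lep 2.67 ± 0.50, Cidec 2.49 ± 0.51). It held for 7 of 9 skeletal muscle markers (10.84 to 12.44 against 10.38 to 11.47; Ckm 1.67 ± 0.50, and Mylpf 1.56) and 6 of 8 dermal papilla markers (6.04 to 6.49 against 5.26 to 5.99; Crabp1 2.04 ± 0.49, Rspo3 1.05 ± 0.24). All these lists had medians of 0.82 to 1.38, larger than that of the 43 matrix genes.

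Macrophage markers had 5 of 8 means larger with baricitinib (10.31 to 11.03 against 9.10 to 10.75; C1qa 1.80 ± 0.94, Cd163 1.02 ± 0.31). At an unadjusted p under 0.05 1 was higher (Cd163) and 1 lower (Csf1r, -0.73 ± 0.20), with 9.81% and 6.22% of all genes. Without V5 1 was higher and 2 lower, with 13.3% and 16.1% of all genes. The median was then 0.12 in place of 0.53, and C1qa was at 0.98. T cell markers had 1 of 7 means larger with baricitinib, with Cd8a at -3.80 ± 1.43 and Cd5 at -1.22. Their median was -0.79, and -1.43 without V5, when 0 of 7 means were larger. At that p 2 of the 7 were lower, with 6.22% of all genes. Leaving out V5, 5 were lower, with 16.1% of all genes. Keratinocyte markers had 3 of 7 means larger with baricitinib (12.23 to 12.89 against 11.87 to 12.73; Krt15 2.49 ± 0.49, Krt1 -1.05). RMA values have no 0, so no marker can be said to be absent.

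**Figure D5:**
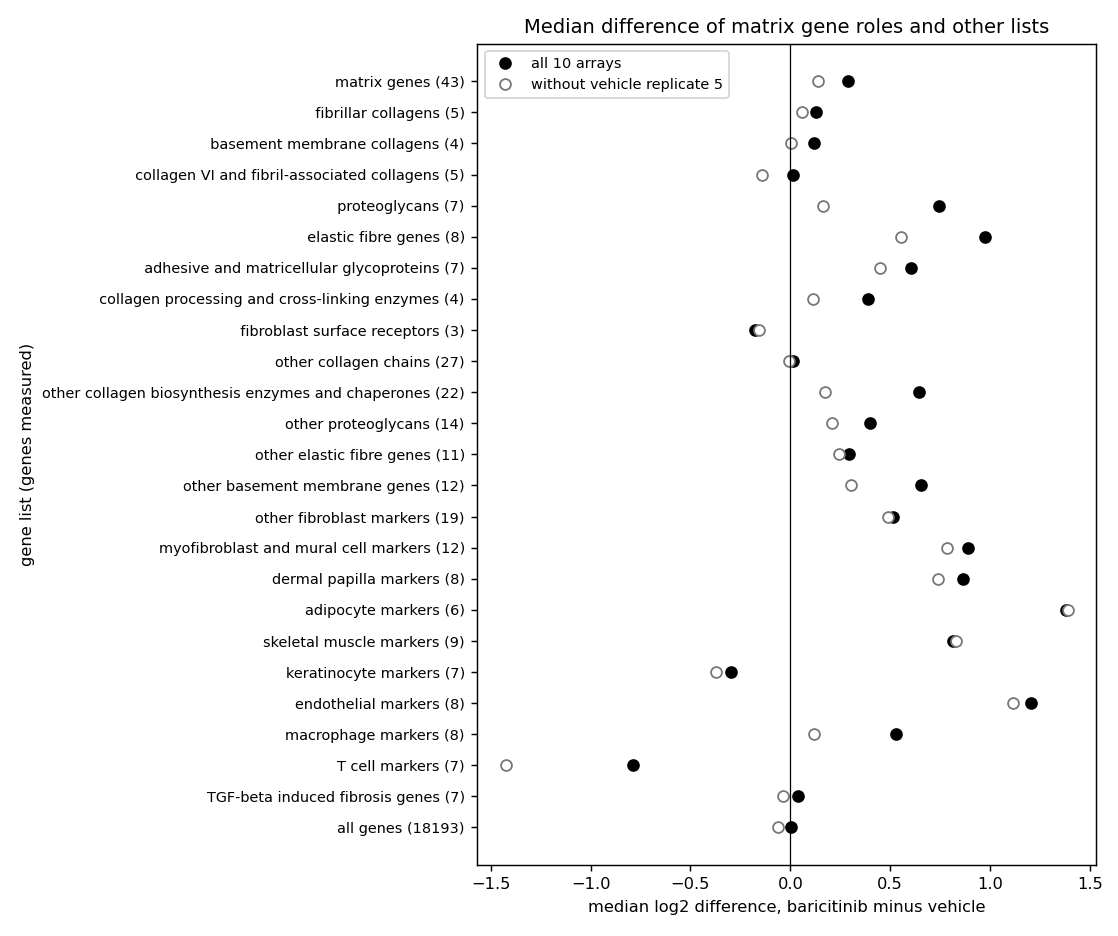
Each row is a gene list with its number of measured genes, the 8 matrix roles first, and points are the median log2 difference, baricitinib minus vehicle, drawn from all arrays as filled points and leaving out V5 as open ones. Elastic fibre genes (0.97) lead the matrix roles, collagen roles lie near 0, and the endothelial (1.21) and adipocyte (1.38) lists lie further right than any matrix role.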

How the data were processed

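Skin RNA of 10 mice was amplified by NuGen chemistry, labelled with biotin and read on Affymetrix mouse arrays, 1 array per mouse, 5 mice per group by the study's methods. The deposited values are log2 expression per probe set, for which the authors ran RMA on this experiment alone; the RMA version is not given in the sources used here. Array means over all probe sets were 6.43 to 6.45 log2, while the SD and the mean over genes set V5 apart. The study dropped 1 vehicle array at quality control. Which one is not in the labels, so no array was dropped here, and each was left out in turn. Groups and replicate numbers came from the sample titles.

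Of 45101 rows, 64 array controls were set aside and 45037 probe sets were tested with no filter; 34945 had 1 gene symbol, 932 several and 9160 none, by the platform annotation. A gene was read by the single-symbol probe set whose mean over the 10 arrays was highest. The 43 measured genes have 98 such probe sets; 34 genes have more than 1. Of the 55 sets not chosen 33 gave a difference of the sign of the chosen set. Among the 35 of these with a mean above the median of all values, 29 did.

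Baricitinib and vehicle were compared with limma 3.58.1 in R 4.3.3 (lmFit, eBayes, two-sided, Benjamini-Hochberg over all tested probe sets, threshold 0.05). The calculation was tested on simulated data. Values after ± are SE for differences. Lists were described by counts and medians, with no list test. All members could be named; full values were given for Col1a1, Col3a1, Dcn, Eln and Pdgfra, the 12 largest differences and genes whose groups lay apart, and of each other list the members that passed or the 2 largest differences. Csf1r, Kera's neighbour Epyc, Ecm2 and Omd were named after their values were seen. The members, lists and rules were chosen with earlier results of these data known. Alternatives were array weights, the replicate number as a block, quantile normalisation, median centring, a filter on dim probe sets (above 6.06 log2 on at least 5 arrays), trend and robust settings, the mean of all probe sets of a gene, leaving out probe sets of the kinds that may hybridise to more than 1 transcript, and each array left out. Precision is limited by the number of arrays.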

Additional observations from a re-analysis of the deposited data

Results flagged for a closer look

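In each group of 5 arrays, the highest and lowest value of every gene was compared with its nearest neighbour by Dixon's ratio. Of 86 groups 8 stood out, 6 of them through V5; chance gives about 1 in 20. V5 was the lowest for Col12a1 (5.52, other vehicle arrays 8.83 to 10.02), Fbln1 (3.68, others 7.54 to 8.62), Mfap5 (5.92, others 9.13 to 9.54), Thbs1 (5.37, others 9.20 to 9.89), Fn1 (9.85, others 10.73 to 10.81) and Loxl1 (6.54, others 7.59 to 7.91). V5 is also the array with the lowest correlation with the others and a gap of 4.06. V4 was the lowest for Ogn (10.13, others 11.28 to 11.47). B5 was the highest for Fbn2 (8.51, others 6.45 to 6.80).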

How the results depend on the processing

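The number of genes of the 43 that passed an adjusted p of 0.05 in limma was 0 with all arrays and 10 with array quality weights. The weights were 0.03 for V5, 0.50 for V4 and 5.43 for B1, the largest. Of the 10, Dcn, Lum, Eln, Fbln1, Mfap2, Tnxb, Thbs2, Postn and Sparc were higher (9.83% of all genes were) and Thy1 was lower (13.2%). Over all probe sets the number was 0 and, with weights, 9676. Leaving out 1 array at a time gave 0 to 2 of the 43 and 0 to 848 of all probe sets. The 2, Dcn and Mfap2, passed without V4, when 0.967% of all genes passed as higher. V4 is the only vehicle array with an RNA gap in the baricitinib range. Without B5 12 probe sets passed. The count of larger baricitinib means stayed between 25 and 36 of 43 and the median between 0.10 and 0.46. Replicate numbers did not pair the arrays (correlations of deviations from -0.23 to 0.09), and with the replicate number as a block 0 of the 43 passed.

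Over 18 alternatives 29 genes never changed sign. For the other 14 the values below 0 or above it are these, and the cause was not tested. With centring Col12a1 had -0.0103, Col14a1 -0.0571, Aspn -0.0257 and Pcolce -0.0683. With quantile normalisation Col14a1 had -0.15, Col15a1 -0.0748, Ogn -0.00956, Aspn -0.11, Vcan -0.0112 and Pcolce -0.12. With the mean of all probe sets Col5a1 had 0.30, Col12a1 -0.415, Vcan -0.45 and Tnc -0.45. With array weights Col4a2 had -0.0546, Col12a1 -0.63, Col14a1 -0.19, Col15a1 -0.00171, Ogn -0.00243, Vcan -0.0672, Tnc -0.40, Lox -0.11 and Pcolce -0.15. Without probe sets that can match several transcripts Fbln2 had -0.0239. That value is from a dim set, with a mean of 3.11 log2 against 6.59 for the chosen one. With 1 array left out the ranges were -0.23 to 0.23 for Aspn, -0.75 to 0.37 for Col12a1, -0.13 to 0.18 for Col14a1, -0.0355 to 0.28 for Col15a1, -0.0309 to 0.26 for Col4a2, -0.21 to 0.0163 for Col6a1, -0.16 to 0.43 for Lox, -0.30 to 0.27 for Mfap4, -0.16 to 0.23 for Ogn, -0.12 to 0.17 for Pcolce, -0.76 to 0.76 for Tnc and -0.0648 to 0.35 for Vcan.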
